A study of Gallus gallus with 38 samples.

Results

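The genes described here act in mitosis: the kinases and cyclins of mitotic entry, the spindle checkpoint, the outer kinetochore, the chromosomal passenger complex, condensin and other parts of the mitotic chromosome, spindle motors, and the proteins of cytokinesis. The list holds 43 gene symbols, and a gene was measured when a probe set carried its symbol in the platform annotation. This was the case for 35 genes, out of 11528 gene symbols on the array. *CCNA2*, *AURKA*, *SPC24*, *CENPE*, *KIF4A*, *HMMR*, *DLGAP5* and *RACGAP1* had no probe set of that symbol and were not analysed here. When a gene had more than 1 probe set, the brightest on average over the 38 arrays was used.

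The cecal and jejunal mucosae were scraped from 19 male Ross 308 broilers at 42 days of age, and each sample was put on 1 chicken whole-transcript array, 38 in all. All birds shared 1 commercial diet in 3 phases, were vaccinated (among others against coccidiosis and Marek's disease) and were chosen for similar body weight, and no treatment was given, so the comparison is between tissues of untreated birds. According to the methods they came from several pens, and selected birds with compromised RNA in 1 of the tissues were dropped. Pens were not used here, so birds of 1 pen count as separate units. Each label carries a bird number, 1 to 19, and arrays of the same number were taken as the same bird, since the methods describe both mucosae as collected from the selected birds and 19 subjects per tissue. The labels' protocol, however, speaks of 38 birds. If the arrays of a number came from different birds, the counts by bird and the correlations between tissues given here pair arrays by number only, while the comparison of the tissues, fitted without the pairing, does not use it. A scraped mucosa holds epithelium, leukocytes and stroma in unknown shares, so more cells in division and more RNA per dividing cell cannot be told apart. The values are deposited normalized signals on a log2 scale, and the number of arrays is 1 of the limits on precision. Levels of different genes were not set against each other, since probes differ in brightness.

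A dividing cell condenses its chromosomes, builds a spindle, and holds back anaphase until every kinetochore is attached to microtubules. Most genes of these steps are transcribed late in the cell cycle and are silent in resting cells, and their transcripts are therefore widely used as a measure of proliferation. In the intestine division takes place mainly in the crypts, while the differentiated cells of villus and surface have left the cycle. Lymphocytes of the mucosa can divide as well.

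The arrays matched their tissue labels in the enterocyte markers, of which 11 of 11 measured were higher in the jejunum. The mean of these markers was between 4.91 and 7.47 on cecal arrays and between 9.24 and 11.3 on jejunal arrays. The jejunal arrays of birds 8 and 19 stood apart from the other jejunal arrays in the mitotic genes. Both were among the highest 2 jejunal arrays for 32 of the 35 genes, so the results are given with and without them. The array of bird 19 also had the lowest enterocyte mean (9.24, against 9.88 to 11.3 on the jejunal arrays other than 8 and 19) and the highest B cell mean (8.07, against 5.38 to 6.18). For bird 8 these means were 10.8 and 6.04, inside the range of the others.

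Of the 35 genes, 34 were more expressed in the cecum than in the jejunum at an adjusted p under 0.05 (limma, with p-values of the 18308 probe sets adjusted by Benjamini-Hochberg), and 0 were more expressed in the jejunum. By this rule the cecum was higher for 25.1% of all probe sets and the jejunum for 20.1%. At an FCR (the ratio of cecum over jejunum after averaging log2 signals) of at least 2, 29 of the 35 were higher in the cecum, where 3.62% of all probe sets were. In the opposite direction 0 of the 35 reached this threshold, against 3.68% of all probe sets. The genes were chosen with earlier results of these data known, so these shares are descriptions and not a test of the list. The median log2 difference, cecum minus jejunum, was 1.34 over the 35 genes (an FCR of 2.53) and 0.03 over all probe sets. Without the jejunal arrays of birds 8 and 19, 30 genes reached an FCR of 2 and the median difference was 1.48. The share of all probe sets in that fit is not given here.

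**Figure D1:**
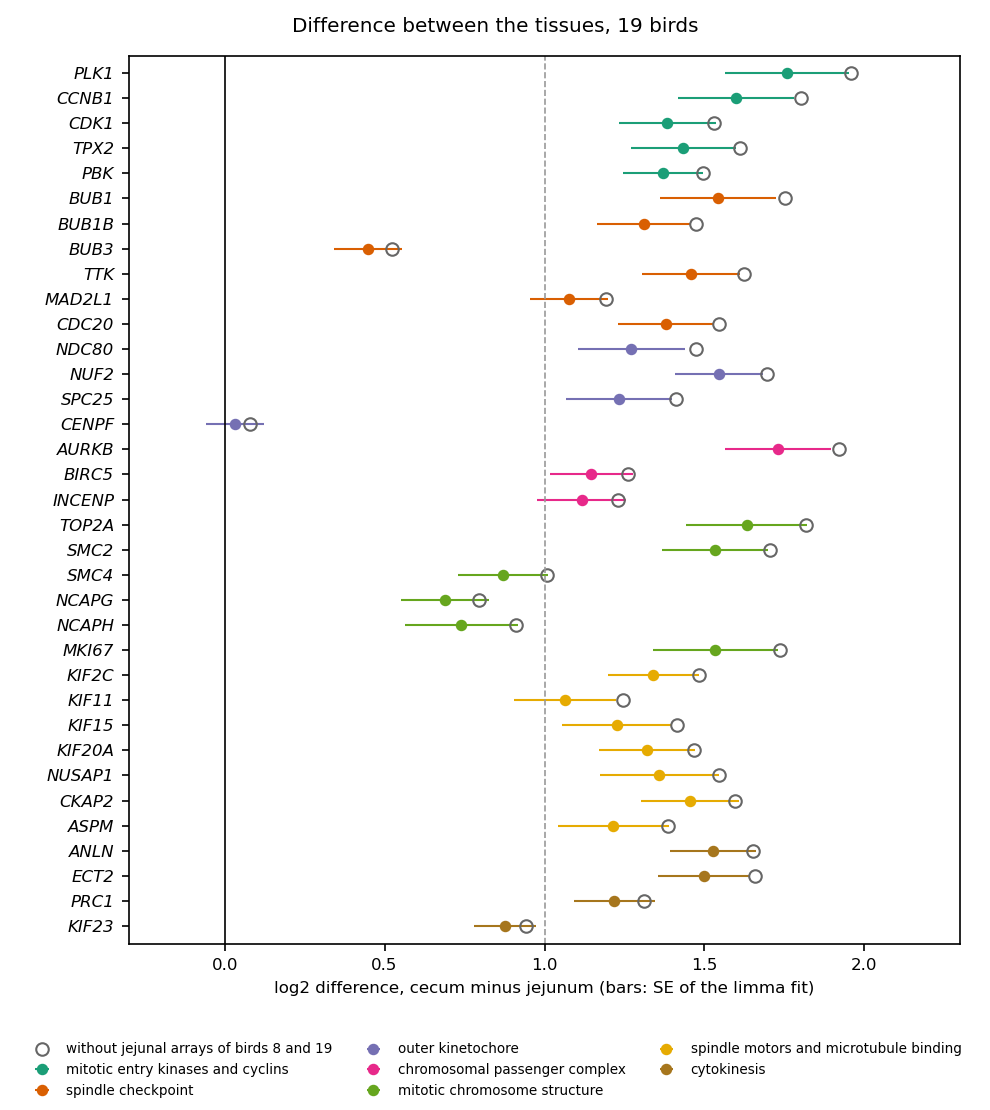
Log2 difference between the tissues for each gene (cecum minus jejunum, horizontal axis), grouped by role, with the SE of the limma fit as bars and n = 19 birds. The dashed line marks a 2-fold difference. Open circles leave out the jejunal arrays of birds 8 and 19. Only *CENPF* lies at 0, and *BUB3*, *NCAPG*, *NCAPH*, *SMC4* and *KIF23* lie between 0.45 and 0.88.

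Mitotic entry is driven by cyclin B with its kinase *CDK1*, and by *PLK1*, and 5 of 5 measured genes of this group had an FCR of at least 2. On cecal arrays the signal of *PLK1*, the polo-like kinase that acts on centrosomes and kinetochores, lay between 6.84 and 8.26 with a median of 7.69, and on jejunal arrays between 4.63 and 7.69 with a median of 5.65. The jejunal values that reached into the cecal range were those of bird 8 (7.37) and bird 19 (7.69), and the next highest, of bird 17, was 6.80. Without birds 8 and 19 the FCR of *PLK1* was 3.89, in place of 3.38 with all arrays. *CCNB1*, cyclin B1, lay between 8.97 and 10.03 in the cecum (median 9.35) and between 6.59 and 9.77 in the jejunum (median 7.81), where only birds 8 (9.40) and 19 (9.77) were above 8.63. Its mean was 9.45 ± 0.32 in the cecum and 7.85 ± 0.77 in the jejunum (SD, n = 19 each), with a difference of 1.60 (SE 0.18, adjusted p = 8.0e-10 from limma). *CDK1* averaged 8.80 ± 0.24 in the cecum and 7.41 ± 0.65 in the jejunum (SD, n = 19 each), an FCR of 2.61 (adjusted p = 3.5e-10), with the cecum above the jejunum in 19 of 19 birds. *TPX2*, which activates Aurora A on spindle microtubules, averaged 7.90 ± 0.26 and 6.46 ± 0.71 in cecum and jejunum, an FCR of 2.70 (adjusted p = 9.9e-10, 17 of 19 birds). *PBK*, a mitotic kinase, averaged 6.70 ± 0.25 in the cecum and 5.32 ± 0.51 in the jejunum, an FCR of 2.59 (adjusted p = 2.4e-12, 19 of 19 birds).

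The spindle checkpoint delays anaphase by holding *CDC20*, the activator of the anaphase promoting complex, in a complex with *MAD2L1*, *BUB1B* and *BUB3*. All 6 of its genes were higher in the cecum, 5 of them at an FCR of at least 2. *BUB1*, a checkpoint kinase at the kinetochore, ranged from 5.77 to 7.05 in the cecum (median 6.66) and from 4.01 to 6.93 in the jejunum (median 4.78). Its jejunal values were 6.57 in bird 8 and 6.93 in bird 19 and at most 5.67 in the other birds, below every cecal array, and the FCR of 2.91 became 3.37 without the 2 arrays. *TTK*, the kinase that starts the checkpoint, averaged 6.47 ± 0.32 in the cecum and 5.01 ± 0.63 in the jejunum (SD, n = 19 each), a difference of 1.46 (SE 0.15, adjusted p = 1.2e-10 from limma) in the same direction in 19 of 19 birds. *CDC20* had 6.91 ± 0.27 in the cecum and 5.53 ± 0.63 in the jejunum (FCR 2.60, adjusted p = 2.4e-10, 18 of 19 birds). *BUB1B*, the inhibitory partner of *CDC20*, had 6.92 ± 0.27 in the cecum and 5.61 ± 0.61 in the jejunum (FCR 2.48, adjusted p = 4.7e-10, 17 of 19 birds). *MAD2L1* had 6.58 ± 0.33 in the cecum and 5.50 ± 0.43 in the jejunum (FCR 2.11, adjusted p = 6.1e-10, 19 of 19 birds).

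*BUB3*, a propeller protein that brings *BUB1* and *BUB1B* to kinetochores, differed least among these 6. Its signal lay between 6.52 and 7.92 in the cecum (median 7.54) and between 6.37 and 7.71 in the jejunum (median 6.95), and 17 of 19 jejunal arrays were above the lowest cecal one. This gave an FCR of 1.36 (adjusted p = 5.3e-04 from limma) on a difference of 0.45 (SE 0.11), with the cecum higher in 17 of 19 birds. The lowest cecal value was that of bird 3.

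At the outer kinetochore the Ndc80 complex binds the microtubule. *NDC80* and *NUF2* form one of its dimers, and *SPC25* belongs to the other, which anchors the complex. *NUF2* lay between 6.98 and 8.10 in the cecum (median 7.45) and between 5.18 and 7.27 in the jejunum (median 5.77), and 19 of 19 birds had more in the cecum. Its difference was 1.55 (SE 0.14, FCR 2.92, adjusted p = 1.1e-12 from limma). The jejunal arrays above the lowest cecal one were again those of birds 8 (7.08) and 19 (7.27). *NDC80* averaged 6.07 ± 0.31 in the cecum and 4.80 ± 0.70 in the jejunum (SD, n = 19 each), an FCR of 2.41 (adjusted p = 2.4e-08, 17 of 19 birds), and *SPC25* averaged 6.85 ± 0.37 and 5.62 ± 0.66 in cecum and jejunum, an FCR of 2.35 (adjusted p = 4.0e-08, 18 of 19 birds).

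*CENPF*, a large protein of the fibrous corona of the kinetochore, was the only gene that did not pass the test. Its signal was 7.07 ± 0.25 in the cecum and 7.03 ± 0.31 in the jejunum (SD, n = 19 each), with a difference of 0.03 (SE 0.09, adjusted p = 0.81 from limma) and a higher cecal value in 11 of 19 birds. This value rests on the choice of the probe set. The platform gives the symbol *CENPF* to 2 probe sets, and the brighter one, which the rule takes, carries no gene ID. Within 10 probe set IDs on either side of it, 13 probe sets have a gene ID, and 13 of 13 belong to genes of 1 chromosome, which is not that of *CENPF*. The other probe set carries the gene ID of *CENPF*, and it averaged 6.66 ± 0.50 in the cecum and 5.34 ± 0.78 in the jejunum, a difference of 1.32 (SE 0.20, FCR 2.50, adjusted p = 4.7e-07), higher in the cecum of 17 of 19 birds. Its choice was made after the values were seen.

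The chromosomal passenger complex corrects wrong attachments, with *AURKB* (Aurora B) as its kinase, *INCENP* as scaffold and *BIRC5* (survivin) as the subunit that targets it to the centromere. All 3 had an FCR of at least 2. *AURKB* lay between 6.49 and 7.85 in the cecum (median 7.29) and between 4.80 and 7.42 in the jejunum (median 5.41), where 2 arrays, of bird 8 (7.42) and bird 19 (6.94), were above the lowest cecal value and the rest were at most 6.22. Its difference of 1.73 (SE 0.17, FCR 3.32, adjusted p = 8.4e-12 from limma) held in 19 of 19 birds and was second to that of *PLK1* among the 35 genes. *BIRC5* averaged 6.42 ± 0.34 in the cecum and 5.27 ± 0.48 in the jejunum (SD, n = 19 each, FCR 2.21, adjusted p = 6.6e-10, 18 of 19 birds). *INCENP* averaged 7.56 ± 0.38 in the cecum and 6.45 ± 0.51 in the jejunum (FCR 2.17, adjusted p = 6.8e-09, 17 of 19 birds).

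Among the genes of the mitotic chromosome, 6 of 6 were higher in the cecum and 3 of them at an FCR of at least 2. *TOP2A*, the topoisomerase that untangles sister chromatids, lay between 7.84 and 9.03 in the cecum (median 8.35) and between 4.85 and 8.40 in the jejunum (median 6.62), the widest jejunal range of the 35 genes. The difference of 1.63 (SE 0.19) was an FCR of 3.10, with an adjusted p of 1.3e-09 from limma. *MKI67*, the chromosome surface protein known as Ki-67, lay between 8.31 and 9.73 in the cecum (median 8.98) and between 6.38 and 9.35 in the jejunum (median 7.34), with an FCR of 2.90 (adjusted p = 1.1e-08, 17 of 19 birds). All 5 of its probe sets, none of which carries a gene ID, were higher in the cecum, with FCR between 2.47 and 3.35. Condensin, the ring that compacts chromosomes, was less uniform. Its core subunit *SMC2* averaged 8.35 ± 0.29 in the cecum and 6.82 ± 0.71 in the jejunum (SD, n = 19 each, FCR 2.89, adjusted p = 2.6e-10, 19 of 19 birds). The partner subunit *SMC4* averaged 8.41 ± 0.28 in the cecum and 7.54 ± 0.57 in the jejunum, an FCR of 1.83 (adjusted p = 1.6e-06, 17 of 19 birds), which was 2.01 without the jejunal arrays of birds 8 and 19. *NCAPH*, the kleisin of condensin I, had 6.46 ± 0.47 in the cecum and 5.72 ± 0.66 in the jejunum (FCR 1.67, adjusted p = 5.1e-04, 15 of 19 birds). Another of its 4 probe sets held the same values. The remaining ones had an FCR of 1.92 and 1.83 (adjusted p = 6.1e-07 and 2.1e-06 from limma, 17 of 19 birds each). *NCAPG*, another subunit of condensin I, had 6.72 ± 0.30 in the cecum and 6.03 ± 0.55 in the jejunum (FCR 1.61, adjusted p = 5.4e-05, 17 of 19 birds).

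Spindle motors and microtubule binding proteins were higher in the cecum in 7 of 7 cases, all at an FCR of at least 2. *CKAP2*, which promotes microtubule growth, averaged 7.80 ± 0.33 in the cecum and 6.35 ± 0.62 in the jejunum (SD, n = 19 each, FCR 2.74, adjusted p = 1.1e-10 from limma), higher in 19 of 19 birds. *KIF2C*, the kinesin that takes microtubules apart at centromeres, averaged 6.24 ± 0.28 in the cecum and 4.90 ± 0.59 in the jejunum (FCR 2.53, adjusted p = 1.7e-10), also in 19 of 19 birds. *NUSAP1*, which bundles spindle microtubules, had 7.54 ± 0.32 in the cecum and 6.19 ± 0.80 in the jejunum (FCR 2.56, adjusted p = 6.3e-08, 17 of 19 birds). *KIF20A*, a kinesin of the late spindle, had 6.39 ± 0.39 in the cecum and 5.07 ± 0.56 in the jejunum (FCR 2.50, adjusted p = 6.5e-10, 17 of 19 birds). *KIF15* and *KIF11* are the kinesins that push the spindle poles apart. *KIF15* had 7.32 ± 0.37 in the cecum and 6.09 ± 0.70 in the jejunum (FCR 2.34, adjusted p = 1.2e-07, 17 of 19 birds), and *KIF11* had 6.94 ± 0.24 and 5.88 ± 0.69 in cecum and jejunum (FCR 2.09, adjusted p = 3.6e-07, 17 of 19 birds). *ASPM*, a protein of the spindle poles, had 7.16 ± 0.44 in the cecum and 5.95 ± 0.67 in the jejunum (FCR 2.32, adjusted p = 1.5e-07, 18 of 19 birds).

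Cytokinesis separates the daughter cells. *ANLN* (anillin), which scaffolds the contractile ring, lay between 5.96 and 7.11 in the cecum (median 6.25) and between 3.99 and 6.06 in the jejunum (median 4.88), and its difference of 1.53 (SE 0.13, FCR 2.88, adjusted p = 8.0e-13 from limma) held in 19 of 19 birds. Only the jejunal array of bird 8 entered the cecal range. *ECT2*, the exchange factor that switches on RhoA at the cleavage site, averaged 6.90 ± 0.30 in the cecum and 5.41 ± 0.58 in the jejunum (SD, n = 19 each, FCR 2.83, adjusted p = 9.5e-12, 18 of 19 birds). *PRC1*, the bundler of the central spindle, averaged 7.94 ± 0.41 in the cecum and 6.72 ± 0.40 in the jejunum (FCR 2.33, adjusted p = 8.3e-11, 18 of 19 birds), while its dimmer probe set had an FCR of 1.24 (adjusted p = 0.0012). *KIF23*, the motor of the centralspindlin complex, lay between 7.23 and 7.75 in the cecum (median 7.51) and between 5.76 and 7.17 in the jejunum (median 6.64). It was the only 1 of the 35 genes whose tissues did not overlap, where 1.22% of all probe sets were separated with the cecum higher. Its FCR was nevertheless 1.84 (difference 0.88, SE 0.10, adjusted p = 3.3e-10), below the threshold of 2, and its cecal SD was 0.17.

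**Figure D2:**
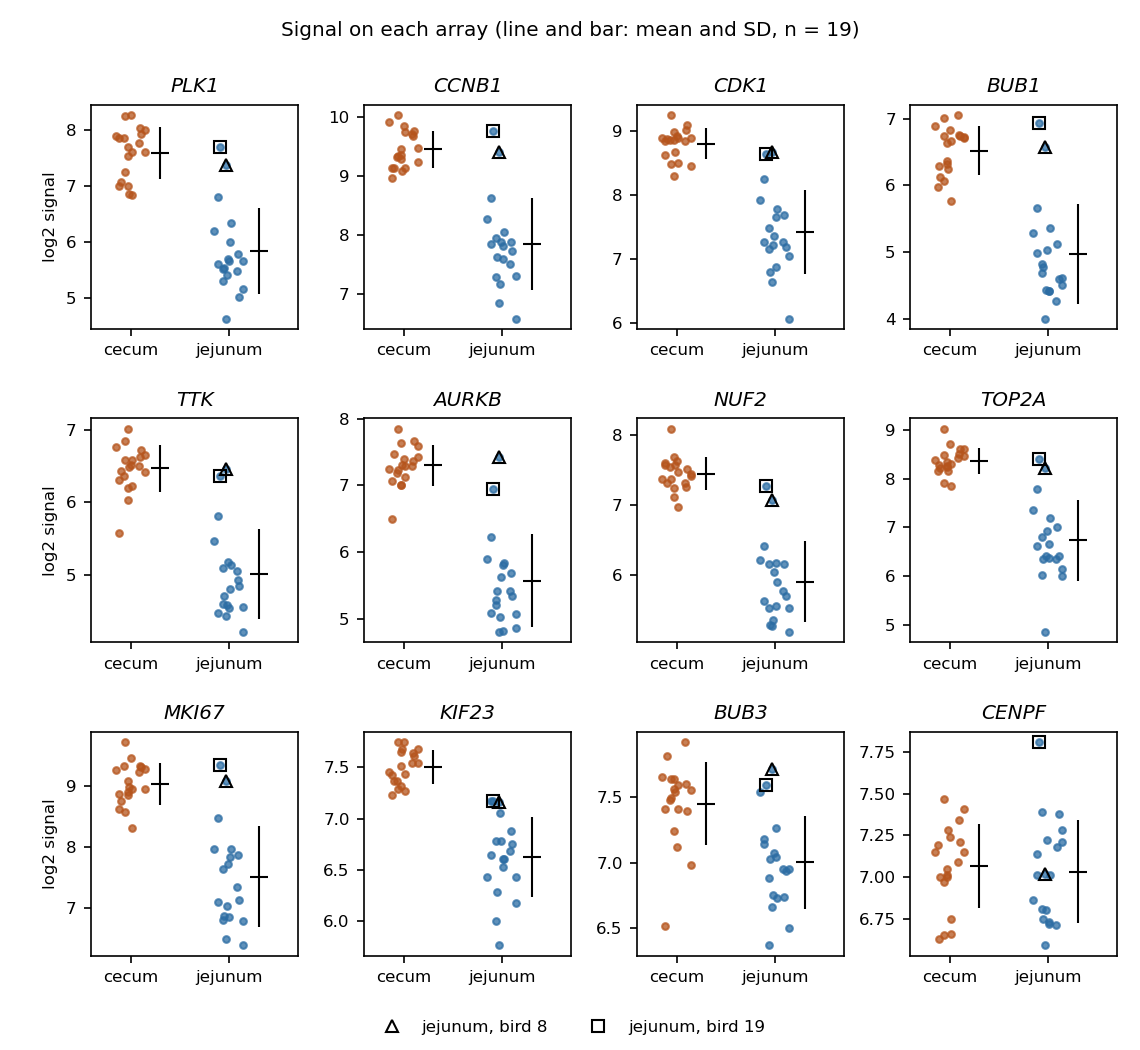
Log2 signal of 12 of the genes on every array, cecum on the left and jejunum on the right of each panel, with mean and SD (n = 19 each) beside the points and a separate vertical scale for each gene. The jejunal arrays of bird 8 (triangle) and bird 19 (square) lie within the cecal range for *PLK1*, *CCNB1*, *CDK1*, *BUB1*, *TTK*, *AURKB*, *NUF2*, *TOP2A* and *MKI67*, and *KIF23* is the gene without overlap.

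By bird, the cecum was higher for nearly all genes outside 2 animals, while the size of the difference varied. The cecum was higher in all 19 birds for 11 of the 35 genes, against 4.69% of all probe sets. Of 665 pairs of cecum and jejunum (35 genes in 19 birds), 49 had the higher signal in the jejunum, and 39 of these came from birds 8 and 19. In bird 19 the jejunum was higher for 21 genes and in bird 8 for 18, and the median difference of the genes was -0.11 and -0.02. In the other birds the jejunum was higher for 0 to 3 genes, 10 of 595 pairs in all. Their median difference lay between 0.37 in bird 17 and 1.97 in bird 1. In birds 8 and 19 it was the jejunal array that was out of line: its genes lay a median of 1.40 and 1.36 above the jejunal mean, while the cecal arrays of these birds were at 0.03 and -0.15 from the cecal mean. The jejunal array of bird 17 was next, 0.70 above the jejunal mean. When the jejunal arrays of birds 8 and 19 were left out, 21 of the 35 genes did not overlap between the tissues, with 2.31% of all probe sets separated in this direction. The 2 arrays were left out after their values were seen.

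**Figure D3:**
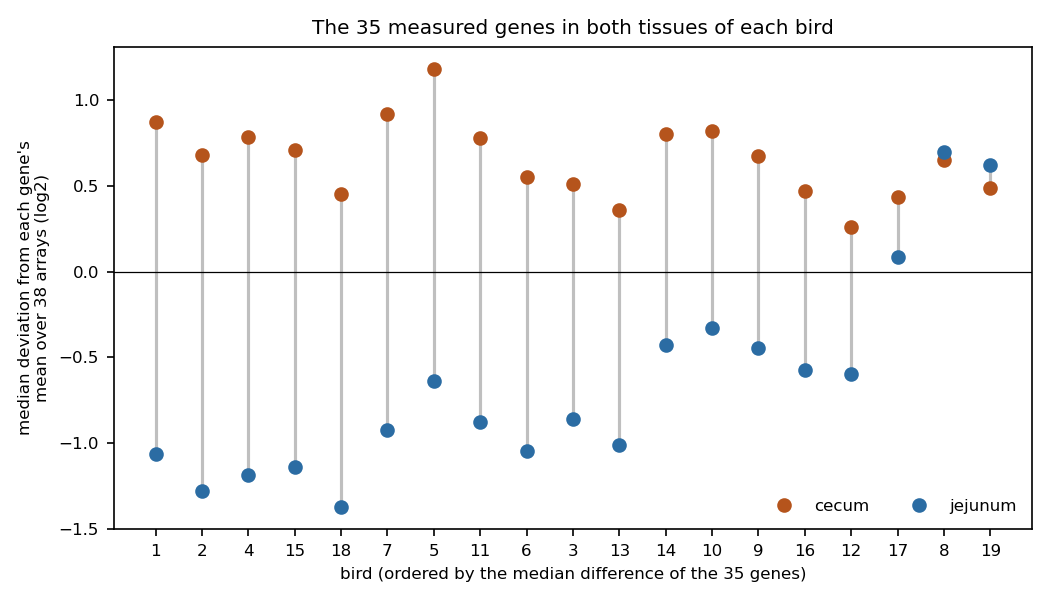
Median deviation of the 35 genes from each gene's own mean over 38 arrays (log2, vertical axis) in the cecum and jejunum of each bird, ordered by the median difference between the tissues. In birds 8 and 19 both tissues lie close together and above 0, and in the other birds the cecum lies above the jejunum.

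Across birds the genes varied more in the jejunum than in the cecum. The SD over 19 birds had a median of 0.31 in the cecum and of 0.63 in the jejunum, and it was larger in the jejunum for 34 of 35 genes, *PRC1* being the exception. The median ratio of the jejunal over the cecal SD was 2.02 for the 35 genes and 0.95 for all probe sets, of which 43.7% had the larger SD in the jejunum. The ratio was highest for *TOP2A* (3.02, an SD of 0.27 in the cecum and 0.83 in the jejunum). A good part of this spread lay in 2 arrays. Without the jejunal arrays of birds 8 and 19 the median ratio was 1.39 for the 35 genes and 0.89 for all probe sets. Then 30 of 35 genes still had the larger SD in the jejunum, against 37.9% of all probe sets. These ratios are descriptions and were not tested.

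**Figure D4:**
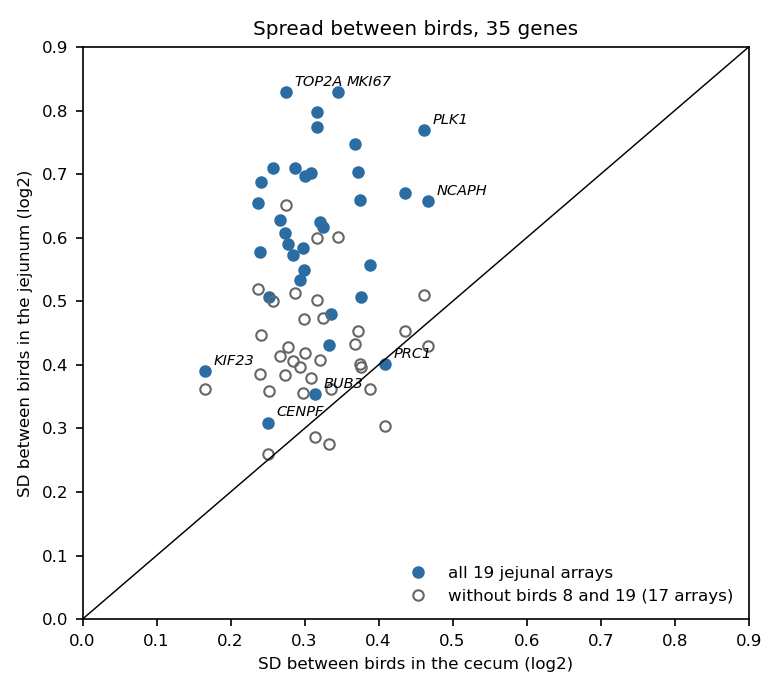
SD between birds of each gene in the cecum (horizontal axis) and in the jejunum (vertical axis), both in log2 units, with a line of equal SD. Filled points use all 19 jejunal arrays and open points leave out birds 8 and 19. With all arrays 34 of 35 points lie above the line, and without the 2 arrays 30 do. Over all probe sets the shares were 43.7% and 37.9%.

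Within a tissue the genes moved together from bird to bird. Over the 595 pairs of the 35 genes, Pearson's r across 19 birds had a median of 0.53 in the cecum and 0.88 in the jejunum, beside medians of -0.0016 and -0.0040 in cecum and jejunum over the pairs of the 11528 named genes. Pairs share their arrays and any difference in array quality, so these values are descriptions. Without the jejunal arrays of birds 8 and 19 the jejunal median was 0.75. In the cecum 566 pairs were above 0 and 347 above 0.5, and in the jejunum 595 and 568. The highest r was that of *TPX2* with *MKI67* in the cecum (0.93) and that of *SMC2* with *KIF2C* in the jejunum (0.98). Each gene's median r with the other 34 was highest for *SMC2* in the cecum (0.72) and for *KIF11*, *MKI67* and *KIF15* in the jejunum (0.93 each).

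*BUB3* stood apart in both tissues. Its median r with the others was 0.13 in the cecum and 0.65 in the jejunum (0.36 without birds 8 and 19), and the lowest pair of the cecum was *BUB3* with *PRC1* (-0.50). *SPC25* was the next lowest in the cecum (0.26), while in the jejunum its median r was 0.88. The cecal array of bird 3 had the lowest cecal signal of *BUB3* (6.52) and *SPC25* (6.10), and its *PRC1* (8.56) was near the cecal maximum of 8.60. Without the cecal arrays of birds 3 and 12 the lowest cecal pair was *BUB3* with *CDC20* (-0.38). *CENPF* had 0.50 in the cecum and 0.45 in the jejunum with the probe set without a gene ID, and 0.56 and 0.92 with the other one.

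**Figure D5:**
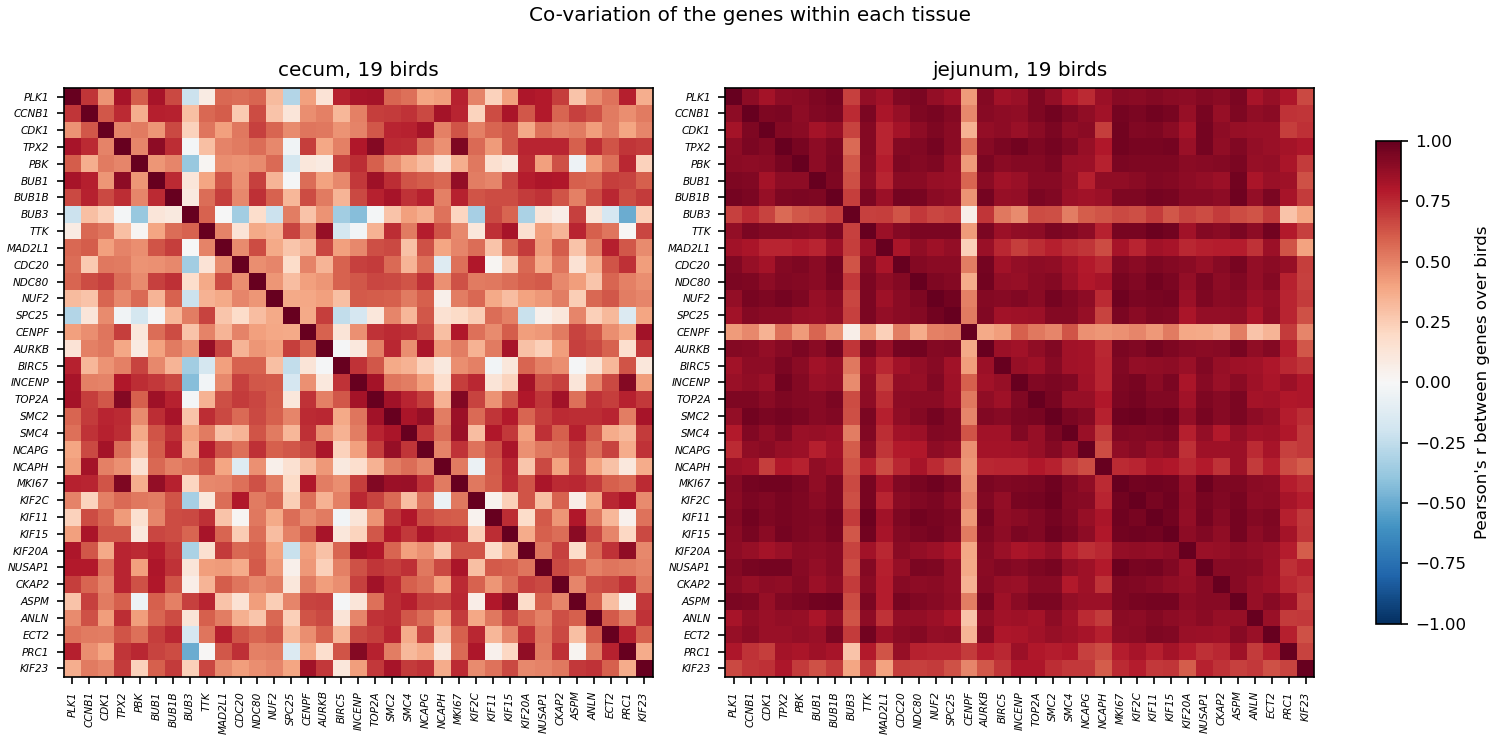
Pearson's r between the 35 genes over 19 birds, cecum on the left and jejunum on the right, on a colour scale from -1 to 1 with the genes ordered by role. The jejunal map is nearly uniform (median 0.88), with *CENPF* and *BUB3* as pale rows, and the cecal map is more varied (median 0.53), with *BUB3* and *SPC25* as pale or blue rows.

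Pairs of genes whose proteins work together were then compared, 14 measured pairs in each tissue, with p from 100000 permutations of the birds and Benjamini-Hochberg adjustment over the 28 relations. In the cecum 7 of 14 pairs passed (8 by Spearman's rho), and in the jejunum 14 of 14 (13 by rho). The 14 pairs had a median r of 0.49 in the cecum and 0.88 in the jejunum, near the 0.53 and 0.88 of all 595 pairs. The counts passing therefore do not set partners apart from other pairs of these genes. Without the 2 birds farthest from the median of the first gene of a pair, 6 passed in the cecum and 11 in the jejunum. In the cecum *CCNB1* with *CDK1* (r = 0.62, and 0.52 without the 2 birds, adjusted p = 0.051 from permutations) and *NCAPG* with *NCAPH* (r = 0.50, and 0.34 without them, adjusted p = 0.22) no longer passed, and *TTK* with *BUB1* then did (r = 0.40, and 0.54 without them, adjusted p = 0.042). *SMC2* and *NCAPG*, both condensin I, had r = 0.87 and rho = 0.85 in the cecum (adjusted p = 3.5e-05 and 1.9e-04 from permutations) and r = 0.92 and rho = 0.90 in the jejunum (adjusted p = 3.5e-05 and 1.1e-04), and r was 0.85 in the cecum and 0.89 in the jejunum without the 2 birds farthest from the median of *SMC2*. An unadjusted p of 1e-05 is the smallest that 100000 permutations can give. *SMC2* with *SMC4* followed, with r = 0.82 and rho = 0.83 in the cecum (adjusted p = 7.0e-05 and 2.0e-04 from permutations) and r = 0.94 and rho = 0.92 in the jejunum (adjusted p = 3.5e-05 and 7.0e-05), with 0.74 and 0.91 without the 2 farthest birds. *PLK1* and *BUB1* had r = 0.82 and rho = 0.80 in the cecum (adjusted p = 1.5e-04 and 3.1e-04 from permutations), and r = 0.93 and rho = 0.76 in the jejunum (adjusted p = 3.5e-05 and 7.7e-04), with 0.78 and 0.81 without the 2 farthest birds.

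Other partners passed in the jejunum and not in the cecum, and the difference between the tissues was not tested. *AURKB* with *BIRC5* had r = -0.01 and rho = 0.17 in the cecum (adjusted p = 0.97 and 0.50 from permutations), against r = 0.85 and rho = 0.74 in the jejunum (adjusted p = 5.1e-05 and 8.0e-04). Without the 2 farthest birds r was 0.23 in the cecum and 0.68 in the jejunum. *AURKB* with *INCENP* had r = 0.10 and rho = 0.29 in the cecum (adjusted p = 0.72 and 0.27 from permutations), and r = 0.84 and rho = 0.75 in the jejunum (adjusted p = 5.1e-05 and 7.7e-04). Without the 2 farthest birds these r were 0.30 and 0.71. The cecal array of bird 3 had the lowest *AURKB* (6.49) and the highest *BIRC5* (6.99) of the cecum. It is among the 2 farthest birds left out, and no r without this array alone is given here. *BIRC5* with *INCENP* passed in both, with r = 0.72 and rho = 0.76 in the cecum (adjusted p = 9.1e-04 and 6.7e-04 from permutations) and r = 0.87 and rho = 0.85 in the jejunum (adjusted p = 3.5e-05 and 7.0e-05). *BUB3* with *BUB1* did not pass in the cecum (r = 0.12, rho = 0.22, adjusted p = 0.70 and 0.39 from permutations). In the jejunum the same pair had r = 0.65 (adjusted p = 0.0043 from permutations) and rho = 0.39 (adjusted p = 0.12), and r was 0.27 without the 2 birds farthest from the median of *BUB1*, so that relation rests on those birds. *BUB1B* with *BUB3* (r = 0.69, adjusted p = 0.0022 from permutations) and *CDC20* with *MAD2L1* (r = 0.81, adjusted p = 2.6e-04) likewise no longer passed without the 2 farthest birds, at r = 0.38 and 0.50. Without the jejunal arrays of birds 8 and 19, 10 of the 14 jejunal pairs passed.

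A bird with high signals in its cecum did not have them in its jejunum in a way that passed the test by Pearson's r. By Spearman's rho 1 gene passed. Over 19 birds the correlation of the cecal with the jejunal signal of the same gene had a median r of 0.03 over the 35 genes, from -0.54 for *PLK1* to 0.67 for *SPC25*, and it was above 0 for 18 genes. After adjustment over the 35 genes 0 relations passed by Pearson's r with permutations, and 4 had an unadjusted p under 0.05. *SPC25* came closest by r (0.67, adjusted p = 0.072 from permutations). It was the 1 gene that passed by rho (0.72, adjusted p = 0.022 from permutations). Its r was 0.65 without the 2 birds farthest from the cecal median. *PLK1* had r = -0.54 and rho = -0.45 (adjusted p = 0.19 and 0.33 from permutations), and r = -0.65 without the 2 farthest birds.

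The rest of the cell cycle was read from lists written with earlier results of these data known, by the same thresholds. Over all probe sets the cecum was higher for 25.1% and the jejunum for 20.1%, and the cecum at an FCR of at least 2 for 3.62%. Of 24 measured other genes of centromere and kinetochore, 20 were higher in the cecum, 6 of them at an FCR of at least 2, and 1 (*CLIP1*) was higher in the jejunum. *CENPS*, a histone-fold protein of the inner kinetochore, had an FCR of 4.32 (adjusted p = 6.8e-18 from limma, 19 of 19 birds), above any of the 35 genes, and *CENPL* and *CENPI* had an FCR of 2.31 and 2.15. All 4 condensin subunits outside the 35 genes were higher in the cecum, *NCAPG2* with an FCR of 2.08 and *NCAPD3* with 2.06. Of 12 other mitotic cyclins, kinases and phosphatases, 11 were higher in the cecum and 5 at an FCR of at least 2, led by *BORA* (2.46), which helps to activate *PLK1*, the centriole kinase *PLK4* (2.46) and *MELK* (2.32).

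The other mitotic lists had median differences below the 1.34 of the 35 genes. These were 0.68 for other genes of centromere and kinetochore and 0.94 for the condensin subunits. The kinetochore list also holds genes of microtubules and their motors. Among them *CLASP1*, *CLASP2*, *CLIP1* and *DYNC1H1* had differences of 0.09, -0.05, -0.37 and 0.20. Some probe sets of these lists were dim (mean signal under 5 in cecum and jejunum). The medians therefore depend on what each list holds. For the other mitotic cyclins, kinases and phosphatases the median was 0.89. Lists of other steps of the cycle were also below 1.34, and differences between lists were not tested. Of 39 measured genes of DNA replication, the cecum was higher for 35 and the jejunum for 0, but only 7 at an FCR of at least 2, with a median difference of 0.58. The subunits of ribonucleotide reductase, which makes deoxynucleotides, led with *RRM2* (FCR 3.02) and *RRM1* (FCR 2.90), ahead of the replication kinase *CDC7* (FCR 2.45), all 3 in 19 of 19 birds. Of 8 genes in a list of G1 cyclins and kinases, 5 were higher in the cecum, 0 at an FCR of at least 2 (median difference 0.38). This list also holds *MYC*, *MYCN* and *CDC25A*, the last of which is in the list of other mitotic cyclins, kinases and phosphatases as well. The anaphase promoting complex and its regulators (6 of 12 higher in the cecum, 1 in the jejunum) and cohesin with its loaders (3 of 11 in each direction) had median differences of 0.24 and 0.10. The cohesin counts lie near the shares over all probe sets, 25.1% for the cecum and 20.1% for the jejunum. Among 20 transcription regulators of mitotic genes, the cecum was higher for 11 and the jejunum for 2, and the 3 with an FCR of at least 2 were *MYBL1* (2.46), *E2F7* (2.07) and *FOXM1* (2.04), the last a forkhead factor of late cell cycle genes.

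Of these 9 cell cycle lists, only inhibitors and genes of cell cycle exit had a median difference below 0 (-0.14), where the cecum led for 2 of 11 and the jejunum for 4 and 5 were called in neither direction. Over all probe sets the shares were 25.1% and 20.1% for cecum and jejunum, so these counts of 11 genes lie near the background. The jejunal ones were *CDKN2B*, an inhibitor of the G1 kinases (FCR 2.44 of jejunum over cecum, adjusted p = 3.2e-09 from limma, 19 of 19 birds), *TOB1* (1.67), *BTG2* (1.65), both antiproliferative proteins, and the inhibitor *CDKN1B* (1.41, 19 of 19 birds). The cecal ones were *CDKN3* (FCR 1.71 of cecum over jejunum, adjusted p = 9.7e-10 from limma, 18 of 19 birds) and *GAS1* (1.23).

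Among the other named genes of the array, those whose signal followed the mean of the 35 genes most closely in both tissues (by the smaller of both r, over 19 birds each) were led by *KPNA2*, an importin that carries spindle factors, with r = 0.92 in the cecum and 0.98 in the jejunum. It had an FCR of 3.80 (9.05 ± 0.22 in the cecum and 7.12 ± 0.81 in the jejunum). *FOXM1* was next (r = 0.90 and 0.94 in cecum and jejunum), before *KIF4B* (the platform's symbol for a chromokinesin, r = 0.88 and 0.97, FCR 3.14), *PLK4* and *CDCA7L* (FCR 3.76, 19 of 19 birds). Genes were matched by symbol, and whether the *KIF4B* probe set measures the listed *KIF4A* was not checked. *UHRF1*, *RAD52*, *LYAR*, *SHCBP1* and *CIT* completed the first 10, with a smaller r of at least 0.838. Without birds 8 and 19 the jejunal r of the 10 genes lay between 0.56 and 0.95. All 10 were higher in the cecum, with FCR between 1.52 and 3.80. The median r over all 11493 other named genes was 0.01 in the cecum and -0.05 in the jejunum. The genes were picked for their likeness, so these r carry no test.

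Markers of the cells that could carry these transcripts also differed between the tissues. Their counts stand beside shares over all probe sets of 25.1% higher in the cecum and 20.1% higher in the jejunum. Of 14 crypt and stem cell markers, the cecum was higher for 8 and the jejunum for 1 (*OLFM4*), with *EPHB3* (FCR 4.57), *EPHB2* (FCR 3.45) and *LGR5* (FCR 2.93), receptors of the crypt base, as the highest. The mean of this list lay between 6.96 and 7.51 on cecal arrays and between 5.90 and 6.82 on jejunal arrays, and it followed the mean of the 35 genes with r = 0.81 in the cecum and 0.71 in the jejunum (0.78 without birds 8 and 19). On the jejunal arrays of birds 8 and 19 the crypt mean was 6.58 and 6.82, against at most 6.81 on the others. For B cells the cecum was higher for 5 of 9 markers and the jejunum for 1, and the list followed the 35 genes with r = -0.14 in the cecum and 0.74 in the jejunum, with or without birds 8 and 19. T cell markers were on the jejunal side (7 of 10, and 0 in the cecum), between 5.72 and 6.61 on cecal arrays and between 6.63 and 7.65 on jejunal arrays, and pan-leukocyte markers too (3 of 5 and 0). T cell markers followed the 35 genes with r = -0.17 in the cecum and 0.74 in the jejunum (0.47 without birds 8 and 19). For pan-leukocyte markers r was 0.07 in the cecum and 0.80 in the jejunum (0.54 without birds 8 and 19), the highest jejunal value of the marker lists with all arrays. In the jejunum both were highest in bird 19 (7.65 for T cells and 9.39 for leukocytes) and next in bird 8 (7.29 and 8.59).

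Stromal markers were on the cecal side. Of 5 smooth muscle markers 4 were higher in the cecum and of 6 fibroblast markers 6, against 25.1% of all probe sets. The smooth muscle mean lay between 7.23 and 8.95 in the cecum and between 5.11 and 8.43 in the jejunum, and the fibroblast mean between 8.18 and 9.61 in the cecum and between 5.40 and 8.88 in the jejunum. These means followed the 35 genes with r = 0.53 and 0.59 in the cecum and r = 0.55 and 0.62 in the jejunum. Without birds 8 and 19 the jejunal r were 0.65 for smooth muscle and 0.70 for fibroblasts. General epithelial markers had a median difference of 0.46, with 5 of 7 higher in the cecum and 0 at an FCR of at least 2. Enterocyte markers went the opposite way to the mitotic genes between birds of 1 tissue (r = -0.49 in the cecum and -0.62 in the jejunum). The jejunal value was -0.47 without birds 8 and 19. All r of list means are descriptions over 19 arrays that both means share. The part of these cell types in the mitotic result was not tested.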

How the data were processed

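The authors hybridised mucosal RNA to Affymetrix Chicken Gene 1.0 ST arrays and, according to the methods, analysed the scans in the Transcriptome Analysis Console (4.0.1.36). What the authors deposited is 1 table of normalized log2 values, with 18308 probe sets on 38 arrays. How background was corrected and how arrays were normalized and summarized is not given in the sources used here, and nothing was normalized again for the main values (array medians 5.57 to 5.75). The platform annotation named the probe sets: 12300 had 1 symbol, 256 had several and 5752 had none.

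The comparison of cecum with jejunum used limma 3.58.1 (R 4.3.3) with tissue as its single term and the thresholds of the methods (FCR of at least 2, adjusted p under 0.05). The bird number served as a block in an alternative. The pairing comes from the methods (the labels' protocol speaks of 38 birds). Deviations from the tissue mean correlated between the 2 arrays of a bird by a mean of 0.114 (-0.133 to 0.411), above 0 in 14 of 19 birds. No value for arrays of different numbers is given here, so this cannot tell whether the pairing holds. The genes and lists were chosen with earlier results of these data known. All measured genes of the list are named, and from other lists up to 3 with the largest FCR. *CLIP1*, *CLASP1*, *CLASP2*, *DYNC1H1*, *OLFM4*, *CDKN3*, *GAS1* and the 4 inhibitors higher in the jejunum were named after their values were seen. Correlations, permutations and plots used Python 3.11.15, numpy 2.4.6, pandas 2.3.3, scipy 1.17.1 and matplotlib 3.10.9. The limma fit and the permutation test of correlations were tested on simulated data. Sequences were not used here.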

Additional observations from a re-analysis of the deposited data

How the results depend on the processing

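The count of 34 genes higher in the cecum, with 0 higher in the jejunum, was the same with the bird as a block, quantile normalization, centred arrays, probe sets left out when dim (mean signal under 5 in cecum and jejunum), array weights, and without the cecal arrays of birds 3 and 12 and the jejunal arrays of birds 8 and 19. When a gene's probe sets were averaged it was 35, since *CENPF* then had a difference of 0.68 (adjusted p = 3.6e-05 from limma). At an FCR of at least 2, 29 genes were found with the bird as a block (replicate block), and the block changed no call. This count was 30 without the 4 arrays or the 2 jejunal ones and 28 with the mean of probe sets. Shares over all probe sets are not given here for these settings. When each bird was left out in turn it stayed at 29, and the median difference lay between 1.29 and 1.41. With TREAT in limma, which asks for a difference beyond 2-fold, 8 genes passed: *PLK1*, *CCNB1*, *NUF2*, *AURKB*, *TOP2A*, *SMC2*, *ANLN* and *ECT2*. The share of all probe sets that pass TREAT is not given here, so this count has no background beside it. By Spearman's rho 1 gene, *SPC25*, was related between the tissues of a bird, against 0 by Pearson's r. The median SD ratio of 2.02 was 1.39 without the jejunal arrays of birds 8 and 19 and 1.58 without the 4 arrays. For all probe sets these 3 ratios were 0.95, 0.89 and 1.05. The choice of these 2 arrays alone, of the *CENPF* probe set with a gene ID, and of both settings for the SD ratio was made after seeing the data. The 19 arrays per tissue limit the precision, and replicates are single scrapings.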
